A study of Mus musculus with 8 samples.

Results

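The genes described here encode the subunits of the 5 complexes of oxidative phosphorylation in 4 EL4 lines. Nuclear members were taken by symbol among genes with a protein-coding transcript, namely the Ndufa, Ndufb, Ndufc, Ndufs, Ndufv, Uqcr, Cox4 to Cox8, Atp5 and Sdha to Sdhd genes without the Ndufaf assembly factors, and the protein-coding genes of mitochondrial DNA formed a second class. This gave 98 of the 54146 genes in the files, 85 nuclear and 13 mitochondrially encoded. By symbol, the nuclear members comprised 36 of complex I, 4 of complex II, 8 of complex III, 20 of complex IV and 17 of complex V, with Ndufa4 and Ndufa4l2 placed in complex IV, where their products sit. The mitochondrially encoded members comprised 7 of complex I, 1 of complex III, 3 of complex IV and 2 of complex V. The Atp5 prefix also takes in Atp5s and Atp5sl, which later annotations name Dmac2l and Dmac2 and which are not subunits of the synthase itself.

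Complexes I to IV pass electrons from NADH and succinate to oxygen, and complexes I, III and IV pump protons out of the mitochondrial matrix. Complex V, the ATP synthase, lets the protons return and makes ATP. Every complex but complex II is built from the products of both genomes, so its assembly depends on transcripts made in the nucleus and in the mitochondrion. Activated T cells are known to raise both glycolysis and mitochondrial respiration. EL4 is a T lymphoma line from a C57BL/6 mouse that expresses its own Gata3 but little Tbx21.

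Each of the 4 lines carried a pair of retroviral constructs and was represented by 2 RNA-seq libraries. The control line was GFP + Plum, which received both marker proteins and neither tagged factor. FLAG-tagged T-bet was carried by the T-bet + Plum line, HA-tagged GATA3 by the GFP + GATA3 line, and both by the line named T-bet + GATA3. T-bet and GATA3 are the factors that set the TH1 and TH2 fates of helper T cells. Every culture, controls included, received PMA at 50 ng/ml together with ionomycin at 1 μM for 4 h, so the libraries hold no resting cells. Each line is a single transduced line, and its replicates are separate harvests of that line, so the tests measure the spread between harvests and not between independently made lines.

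In units of 1e6 estimated counts, 3 libraries were shallower than the rest. Replicate 1 of T-bet + Plum held 8.04, that of T-bet + GATA3 9.81 and that of GFP + GATA3 10.2, against at least 14.9 in each of the other 5. Tbx21 was at 52.4 to 70.2 TPM (abundance per transcript length, scaled to one total in every library) in the 4 T-bet libraries and at 0.755 to 1.71 TPM in the others. Gata3 was at 263 and 300.0 TPM in GFP + GATA3, at 164 and 138 TPM in T-bet + GATA3 and at 11.4 to 27.6 TPM in the rest. The lines with HA-GATA3 thus differed in Gata3 level, and comparisons that pool or contrast them do not hold it equal. All 6 T cell markers examined, among them Cd3e, Lck and Ptprc, were at 32.5 TPM or more in every library. Of 17 markers of B cells, myeloid cells, red cells, epithelium, fibroblasts, muscle and germ cells, 16 stayed below 1 TPM in every library and 7 of them were at 0 throughout. The 17 summed to 4.49 to 8.26 TPM a library. The exception was Acta1, a skeletal muscle actin, at 4.24 to 6.77 TPM.

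Most nuclear subunit genes were expressed at moderate to high levels. Of the 85, 78 passed the filter on low counts. Their mean TPM over the 8 libraries ranged from 0.799 for Cox6a2 to 1215 for Atp5b, with a median of 169. At least 50 TPM was reached in all 8 libraries by 67 of them. The highest was Atp5b, the catalytic beta subunit of the ATP synthase, at 927 to 1438 TPM. Cox6c, a structural subunit of cytochrome c oxidase, followed at 965 to 1133 TPM. Atp5g3, 1 of 3 genes for the c subunit of the rotor ring, was at 701 to 971 TPM. Uqcrq, a small subunit of complex III, was at 555 to 829 TPM. Ndufa4, now regarded as part of cytochrome c oxidase, was at 490 to 748 TPM. Atp5b was above Cox6c in 7 of 8 libraries, and Uqcrq was above Ndufa4 in 6 of 8, so neighbours in this order were not separated in every library.

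**Figure D1:**
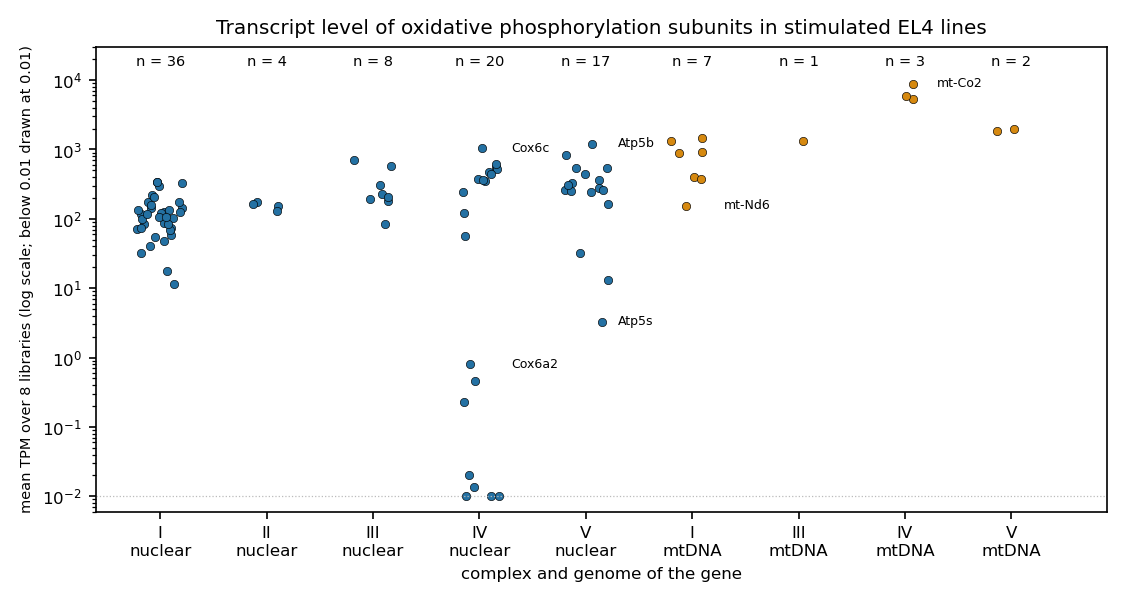
Mean TPM over the 8 libraries (log axis) of each of the 98 members, one point a gene, by complex and by the genome that encodes it. Nuclear members mostly lie near the median of 169 TPM, the mitochondrially encoded genes lie between 154 and 8930 TPM, and the low points in complex IV are tissue-specific isoforms and Ndufa4l2.

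The nuclear transcripts were split unevenly between the complexes, and the split was stable. Complex V took 30.9 to 33.5% of nuclear member TPM over the 8 libraries, complex IV 26.0 to 28.1%, complex I 24.0 to 24.7%, complex III 12.4 to 13.6% and complex II 3.10 to 3.49%. Complex I took a smaller share with 36 genes than complex IV with 20. The complex IV share was 27.4% and 26.0% in GFP + Plum and 27.1% and 26.5% in GFP + GATA3. In T-bet + Plum it was 27.9% and 28.1%, and in T-bet + GATA3 28.1% and 27.2%. The last value lay inside the range of the lines without T-bet, so the groups overlapped.

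Complex IV is the complex with the most alternative isoforms, several of them known from heart, skeletal muscle, lung or testis. The common forms carried almost all of the signal. Cox4i1, at 493 to 638 TPM, stood against a single read of Cox4i2, the lung form, in 1 of 8 libraries. Cox6a1 was at 386 to 533 TPM, and Cox6a2, the heart and muscle form, at 0 to 1.96 TPM. Cox6b1 was at 410 to 595 TPM, whereas Cox6b2, the testis form, had 1 read in 1 library. Cox7a2 was at 316 to 390 TPM and Cox7a1, the heart and muscle form, at 0 to 1.11 TPM. Cox7b was at 105 to 141 TPM and Cox8a at 310 to 429 TPM. Cox7b2, Cox8b and Cox8c were at 0 counts in all 8 libraries, which allows up to 3 counts a library. Ndufa4l2, the hypoxia-responsive relative of Ndufa4, had 0 to 3 counts a library. These 7 genes, Cox4i2, Cox6b2, Cox7a1, Cox7b2, Cox8b, Cox8c and Ndufa4l2, are the members that failed the filter, with at most 5 counts in any library.

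The 3 c subunit genes encode the same mature protein behind different import sequences. Atp5g3 supplied 73.3 to 74.8% of their summed TPM over the 8 libraries, Atp5g1 22.2 to 24.8% and Atp5g2 1.90 to 3.89%. The Atp5g2 value is uncertain, since 40.2% of its 31-base words also occur in other transcripts, and the 2 genes that share over 10% of them, RP23-457H7.8 foremost, received 882% as many counts. Ndufb4, an accessory subunit of complex I, was listed at a mean of 17.9 TPM while its processed pseudogene took 244% as many counts. Of the 78 nuclear members tested, 18 shared more than 25% of their 31-base words with other genes and 21 shared none.

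A further uncertainty concerned which transcript of a gene held the reads. In 43 of the 78 nuclear members tested, at least 90% of TPM was assigned to protein-coding transcripts, and in 12 less than 50%. Cox7b had 4.58% in its protein-coding transcript and Atp5f1, the b subunit of the synthase stalk, 10.6%. For Atp5f1 82.3% was assigned to a transcript of 1311 bases annotated for nonsense-mediated decay. Gene totals were therefore used throughout, with the protein-coding transcripts alone as an alternative.

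Of the 13 mitochondrially encoded genes, 12 had a mean TPM above the nuclear median of 169, mt-Nd6 being the exception. The highest was mt-Co2, encoding the copper-binding subunit II of cytochrome c oxidase, at 7576 to 10339 TPM. The other core oxidase genes, mt-Co3 at 5084 to 6354 TPM and mt-Co1 at 4764 to 5769 TPM, followed. Together these 3 took 62.9 to 68.7% of the class in each library. The ATP synthase genes mt-Atp6 and mt-Atp8 had means of 1946 and 1858 TPM, and mt-Cytb, the only mitochondrially encoded part of complex III, 1339 TPM. Among the complex I genes, means ran from 1480 TPM for mt-Nd1 and 1308 for mt-Nd4l through 930.0 for mt-Nd4 and 887 for mt-Nd2 to 402 for mt-Nd3 and 375 for mt-Nd5. The lowest was mt-Nd6 at 154 TPM, the only member transcribed from the other strand of the circle. In these ranges mt-Co2 was above every other member in all 8 libraries, whereas mt-Co1 and mt-Co3 overlapped, as did mt-Atp6 and mt-Atp8.

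The levels of several mitochondrial genes depend on copies of mitochondrial DNA inserted in nuclear chromosomes. Over 60% of the 31-base words of 7 of the 13 genes also occur in such pseudogenes, and over 95% for 5 of them. For mt-Nd3, the pseudogene RP23-8J15.5 (Gm28438 in a later annotation, GRCm38 chr1:24612775-24613119, minus strand) took 734% as many counts as the gene itself. For mt-Atp6, RP23-8J15.3 (Gm10925, chr1:24613974-24614651, minus strand) took 95.8% as many, and for mt-Nd4, RP23-8J15.7 (Gm28439, chr1:24611535-24612410, minus strand) 25.6%. Of the mt-Atp6 words, 99.5% also occur in its copy. With the pseudogene TPM added, mt-Nd3 moved from rank 11 to rank 5 within the class.

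The shares of both classes in the transcript pool overlapped between the lines with and without T-bet. In GFP + Plum the nuclear members took 1.93% and 1.92% of TPM. They took 1.88% and 1.75% in T-bet + Plum, 1.99% and 2.06% in GFP + GATA3, and 1.63% and 2.05% in T-bet + GATA3. The lowest value, of T-bet + GATA3 replicate 1, stood against 1 of the highest in the other library of that line, and the 4 T-bet libraries overlapped the other 4. The mitochondrially encoded members took 2.68% and 3.17% in GFP + Plum, 2.62% and 3.24% in T-bet + Plum, 3.24% and 3.41% in GFP + GATA3, and 2.95% and 3.29% in T-bet + GATA3. Replicate 2 was the higher library in all 4 lines. Cytosolic ribosomal proteins, also short and abundant transcripts, took at least 9.04% in every library. In bulk RNA, fewer cells that express a gene and less RNA per cell cannot be told apart.

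**Figure D2:**
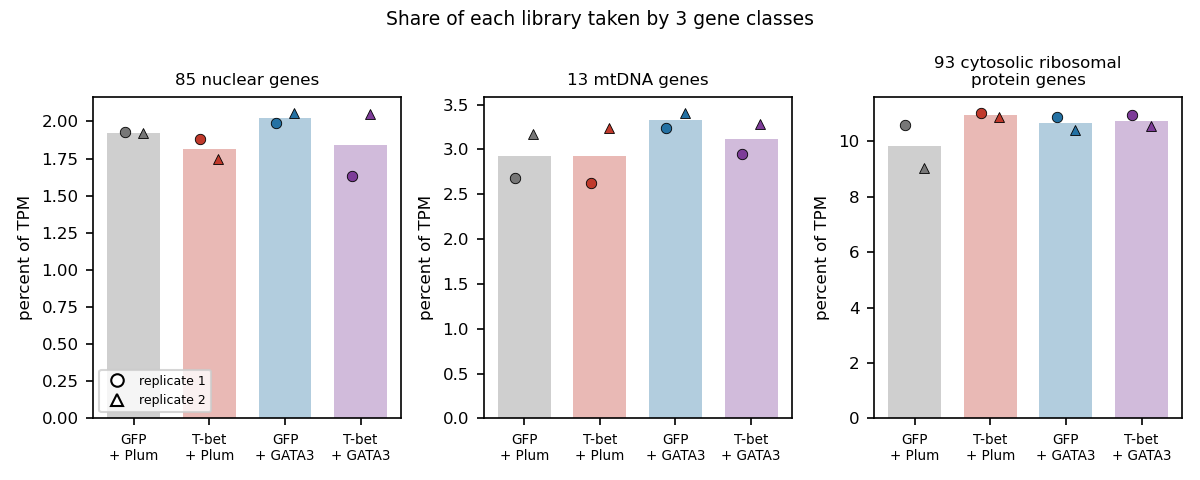
Percent of TPM in each library for the 85 nuclear members, the 13 mitochondrially encoded members and 93 cytosolic ribosomal protein genes. Bars are line means, circles replicate 1 and triangles replicate 2, with all bars starting at 0. The mitochondrial triangles lie above the circles in all 4 lines.

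The first comparison asked whether subunit transcripts differed between the T-bet lines and the lines without T-bet, with all 8 libraries in the fit. Cox7a2 was the only member called, and it rose by a small amount. Among nuclear members 1 of 78 tested passed a false discovery rate (FDR) of 0.05 in edgeR's quasi-likelihood test, against 15.2% of all 14791 genes tested, of which 8.55% were higher and 6.61% lower. No mitochondrially encoded member of 13 was called. At an unadjusted p below 0.05 there were 9 nuclear members, 5 higher and 4 lower, and 1 mitochondrially encoded member, against 29.2% of all genes. DESeq2 called none of the members, against 13.0% of the genes it tested, with 7 at an unadjusted p below 0.05.

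The log2 fold changes of the nuclear members centred near 0. Their median was 0.01, and -0.05 when scaled by library size alone, with 41 above and 37 below 0, and their quartiles were -0.06 and 0.11, against -0.22 and 0.27 over all genes. The median over all genes was 0.02, and -0.04 when scaled by library size alone. By complex, medians were 0.02 for I, -0.07 for II, 0.00 for III, 0.09 for IV and -0.02 for V. The members were measured more precisely than most genes, with a median standard error of 0.10 against 0.17. The 95% confidence interval lay wholly between -0.5 and 0.5 for 67 of the 78 nuclear members and for 33.5% of all genes. It lay between -1 and 1 for 77 of the 78, Cox6a2 being the exception.

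**Figure D3:**
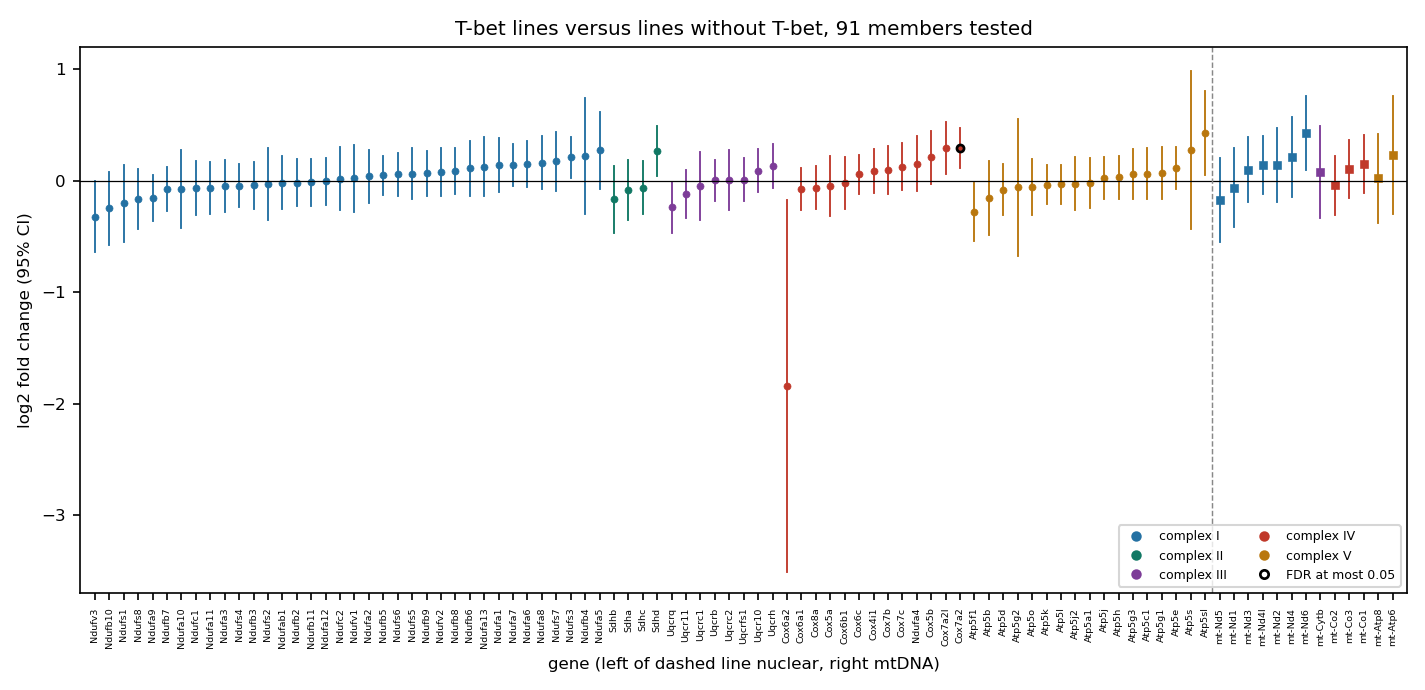
Log2 fold change of each of the 91 members tested, T-bet lines versus lines without T-bet, with its 95% confidence interval, ordered within each complex. Circles are nuclear and squares mitochondrially encoded genes, and the black outline marks Cox7a2, the single member at an FDR of at most 0.05. The widest interval, of Cox6a2, runs from -3.51 to -0.18.

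**Figure D4:**
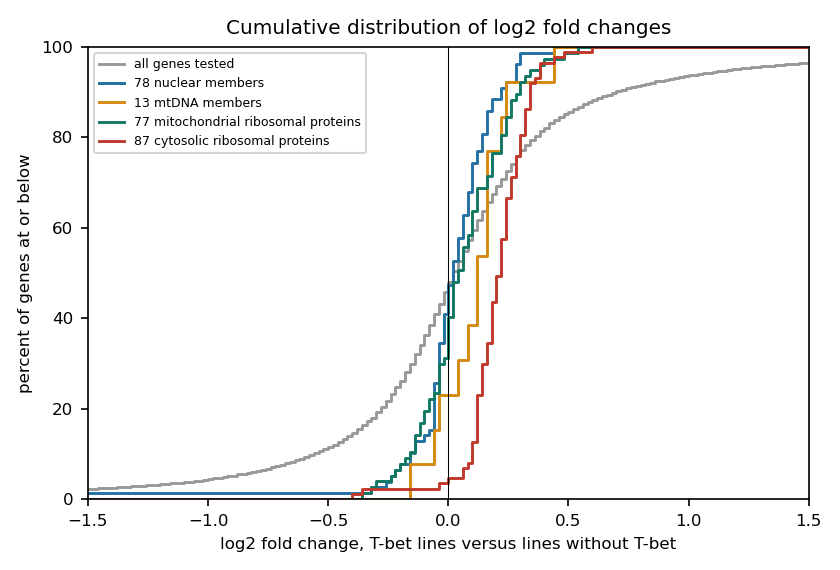
Cumulative percent of genes by log2 fold change in T-bet lines versus lines without T-bet, for all genes tested, the nuclear and mitochondrially encoded members, and mitochondrial and cytosolic ribosomal proteins. The curve of the nuclear members is steeper than that of all genes and has its median at 0.01, while that of cytosolic ribosomal proteins is centred at 0.21.

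Cox7a2 encodes subunit VIIa2, the form of this small oxidase subunit found in most tissues. In CPM (counts scaled to library size, with TMM factors) it was at 146 and 143 in GFP + Plum and 147 and 140.0 in GFP + GATA3. It was at 166 and 169 in T-bet + Plum and at 197 and 175 in T-bet + GATA3. All 4 T-bet libraries were above all 4 others. The log2 fold change was 0.30 ± 0.08 (SE), with a 95% confidence interval of 0.12 to 0.48 and an adjusted p of 0.0378. The call was lost when any 1 of the 8 libraries was left out, with log2 fold changes of 0.23 to 0.31 and adjusted p-values from 0.0585 without T-bet + GATA3 replicate 2 to 0.172 without GFP + GATA3 replicate 2. DESeq2 gave 0.28 with an adjusted p of 0.0571. Of the gene's TPM, 58.7% was in a non-coding processed transcript of 477 bases. With the protein-coding transcripts alone the log2 fold change was 0.37 and the adjusted p 0.105.

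Cox7a2l is a paralogue whose product, SCAFI, is known to link complexes III and IV in supercomplexes. Which allele of Cox7a2l EL4 cells carry, and whether its product links these complexes there, was not examined. The transcript level of Cox7a2l is therefore no measure of supercomplexes. The gene was at 50.0 and 43.8 CPM in GFP + Plum, at 50.1 and 47.1 in GFP + GATA3, at 54.6 and 61.8 in T-bet + Plum and at 63.7 and 53.8 in T-bet + GATA3. The T-bet libraries were again above the others without overlap. The log2 fold change was 0.29 ± 0.10 with an adjusted p of 0.0912, so it was not called.

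The start regions of these genes are shown because Cox7a2 is the called member and Cox7a2l its neighbour in the order of changes. Each window runs from 250 bases before to 50 after the start given by RefSeq on GRCm38.p6, 5′ to 3′ on the gene's strand. Capitals mark words searched on both strands for factors known to act on respiratory genes, which were GCATGCGC for NRF1, CCGGAAG for ETS factors such as GABP and AAGATGGCG for YY1. Neither window holds any of the 3 words. Cox7a2 lies at chr9:79759804-79760103 and Cox7a2l at chr17:83514284-83514583, both on the minus strand.
Cox7a2: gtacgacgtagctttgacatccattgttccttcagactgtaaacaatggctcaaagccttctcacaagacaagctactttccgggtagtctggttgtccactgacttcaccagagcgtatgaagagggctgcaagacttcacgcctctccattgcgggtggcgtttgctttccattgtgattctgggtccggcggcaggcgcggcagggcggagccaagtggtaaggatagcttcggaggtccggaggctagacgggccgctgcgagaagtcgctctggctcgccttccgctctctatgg
Cox7a2l: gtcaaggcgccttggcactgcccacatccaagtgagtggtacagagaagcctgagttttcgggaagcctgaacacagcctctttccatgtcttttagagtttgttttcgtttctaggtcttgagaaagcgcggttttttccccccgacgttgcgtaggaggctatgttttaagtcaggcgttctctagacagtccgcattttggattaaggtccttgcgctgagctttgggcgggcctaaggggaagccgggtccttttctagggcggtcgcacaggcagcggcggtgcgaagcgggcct

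Cox6a1 and Atp5j, a stalk subunit of the synthase, are set beside them as examples of members with 2 of the words each. Cox6a1 lies at chr5:115348909-115349208 and Atp5j at chr16:84834927-84835226, both on the minus strand. Other members, such as Sdhb and Uqcr11, also held 2 of the words. Whether the words go with the change of a gene was not tested. In Cox6a1 the NRF1 word and its reverse complement overlap in 1 run of 10 capitals, and the later run is the ETS word on the other strand. In Atp5j the first run is the YY1 word and the second the ETS word. Another start window of Atp5j, at chr16:84835576-84835875 and not shown, held none of these words. The start of Atp5j faces that of Gabpa, which encodes the DNA-binding part of GABP, on the plus strand.
Cox6a1: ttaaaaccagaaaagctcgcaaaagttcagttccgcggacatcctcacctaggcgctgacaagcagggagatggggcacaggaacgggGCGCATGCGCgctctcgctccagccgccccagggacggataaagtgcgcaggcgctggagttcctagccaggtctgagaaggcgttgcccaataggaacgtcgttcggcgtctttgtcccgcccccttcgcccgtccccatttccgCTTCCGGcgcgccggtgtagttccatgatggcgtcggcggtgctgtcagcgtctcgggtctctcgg
Atp5j: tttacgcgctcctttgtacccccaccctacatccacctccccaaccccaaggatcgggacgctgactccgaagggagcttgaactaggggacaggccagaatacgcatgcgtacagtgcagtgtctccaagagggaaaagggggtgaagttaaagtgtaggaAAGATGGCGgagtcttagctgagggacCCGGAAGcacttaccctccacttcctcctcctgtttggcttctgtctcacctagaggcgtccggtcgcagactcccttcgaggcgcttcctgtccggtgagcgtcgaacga

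Neither Cox6a1 nor Atp5j was called. Cox6a1 was at 214 and 233 CPM in GFP + Plum, 215 and 212 in T-bet + Plum, 236 and 232 in GFP + GATA3 and 206 and 237 in T-bet + GATA3, with a log2 fold change of -0.07 ± 0.08 and an adjusted p of 0.616. For Atp5j, whose reads may overlap those of Gabpa, it was 0.02 ± 0.08, with an adjusted p of 0.893.

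Promoter windows were available for 66 of the 78 nuclear members tested, 72 windows in all, and 29 of these held at least 1 of the 3 words. The NRF1 word was in 13.9% of the member windows, against 2.71% of all 32851 windows and 5.55% of those of protein-coding genes that passed the filter. The YY1 word was in 12.5%, against 1.4% and 3.24%, and the ETS word in 22.2%, against 8.86% and 18.5%. The windows with the YY1 word include both overlapping windows of Atp5sl, which is not a subunit of the synthase. A T-box word, GGTGTGA, was in none of the 72 and in 3.36% of the windows of expressed genes. A GATA word, AGATAA, was in 6.94% and 6.57%. A word of these letters is a description of the window, and no binding was measured.

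Several other members differed between the groups without passing the adjusted threshold. Sdhd, a membrane anchor of succinate dehydrogenase, was at 154 and 195 CPM in GFP + Plum, 150 and 154 in GFP + GATA3, 199 and 187 in T-bet + Plum and 188 and 210 in T-bet + GATA3. One control library lay within the T-bet range. Its log2 fold change was 0.27 ± 0.10, with an adjusted p of 0.113, and ran from 0.18 to 0.36 over the alternative settings. Atp5sl was the largest positive value among nuclear members, at 0.43 ± 0.16 with an adjusted p of 0.124, from 8.11 to 17.5 TPM. Ndufa5, an accessory subunit of complex I, was at 0.27 ± 0.15 and Atp5s, at 1.77 to 6.17 TPM, at 0.27 ± 0.31.

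On the negative side stood Ndufv3, an accessory subunit of the NADH-binding module. It was at 54.7 and 40.2 CPM in GFP + Plum, 58.5 and 47.6 in GFP + GATA3, 44.4 and 37.3 in T-bet + Plum and 42.7 and 36.3 in T-bet + GATA3. Replicate 2 was the lower library in each line, and the groups overlapped. Its log2 fold change was -0.32 ± 0.14, with an adjusted p of 0.164.

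Uqcrq was at 235 and 254 CPM in GFP + Plum, 248 and 236 in GFP + GATA3, 234 and 179 in T-bet + Plum and 204 and 208 in T-bet + GATA3. The highest T-bet library lay just under the lowest of the others. Its log2 fold change was -0.24 ± 0.10, with an adjusted p of 0.159. Atp5f1 was at -0.28 ± 0.11, with an adjusted p of 0.141, and ran from -0.38 to -0.12 over the alternative settings. The Atp5f1 value is uncertain, since 45.9% of its 31-base words also occur in other transcripts. The 2 genes that share over 10% of them received 80.2% as many counts, and 10.6% of Atp5f1 TPM was in protein-coding transcripts. Ndufb10, a complex I membrane arm subunit, was at -0.25 ± 0.14 with an adjusted p of 0.305.

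Cox6a2 had the largest value of either sign but rested on very few reads. It passed the filter on low counts through libraries without T-bet, where it is higher, so a lower value with T-bet was favoured by the filter. It was at 0.80 and 0.13 CPM in GFP + Plum, 1.05 and 0.82 in GFP + GATA3, 0 and 0.21 in T-bet + Plum and 0.22 and 0.27 in T-bet + GATA3. A control library lay inside the T-bet range. The fitted log2 fold change was -1.84 ± 0.72, with an adjusted p of 0.134.

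**Figure D5:**
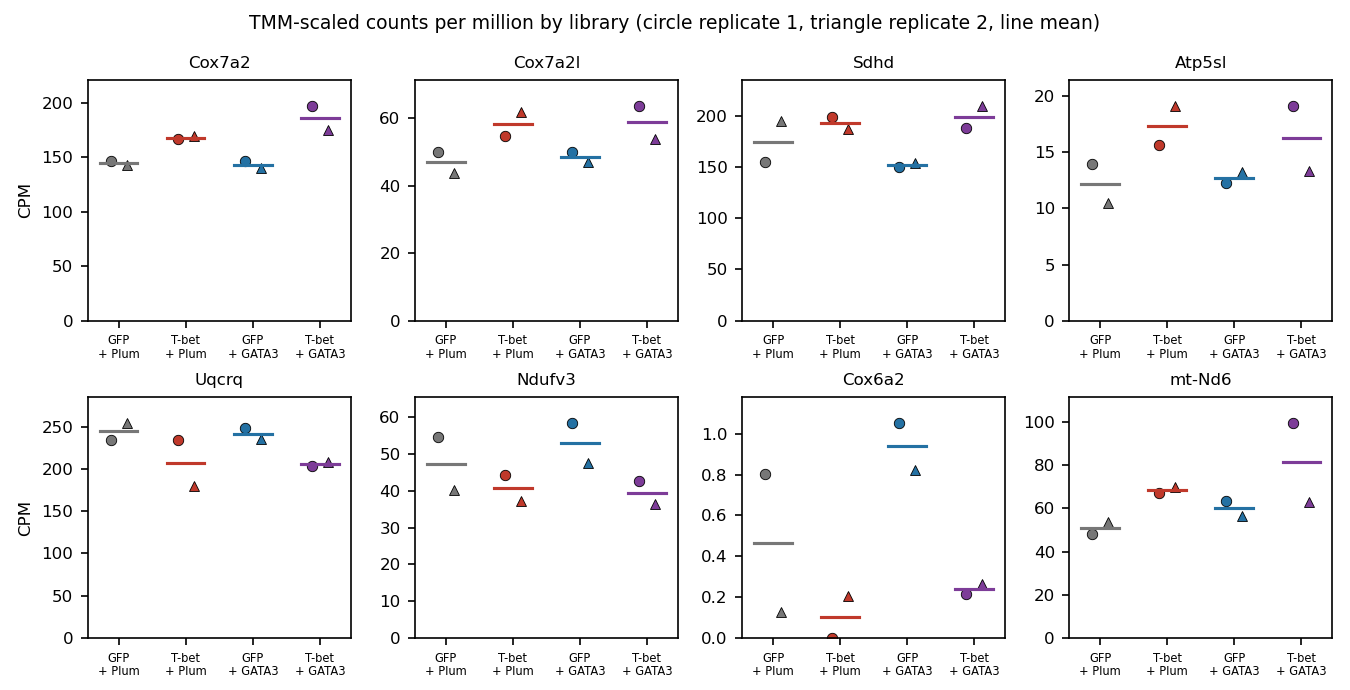
TMM-scaled CPM in each of the 8 libraries for 8 members, on axes that start at 0. Circles are replicate 1, triangles replicate 2 and lines the means of each line. Cox7a2 and Cox7a2l are higher in all 4 T-bet libraries and Uqcrq lower, while the other 5 overlap.

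Libraries with and without T-bet did not overlap for 5 of the 78 nuclear members, or 6.41%, against 22.7% of all genes (12.5% higher and 10.2% lower). Cox7a2, Cox7a2l, Ndufa6 and Ndufs3 were higher and Uqcrq lower. Ndufs3, a core subunit of complex I, had a log2 fold change of 0.21 ± 0.08 with an adjusted p of 0.127, and Ndufa6 one of 0.15 ± 0.09 with an adjusted p of 0.334. No mitochondrially encoded member separated the groups. Ndufa6, Ndufs3 and Sdhd were named after their values were seen.

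Among mitochondrially encoded members the median log2 fold change was 0.10, with 10 above and 3 below 0. It was largest for mt-Nd6, at 48.1 and 53.8 CPM in GFP + Plum, 63.5 and 56.7 in GFP + GATA3, 67.1 and 69.7 in T-bet + Plum and 99.6 and 63.1 in T-bet + GATA3. One T-bet library fell within the range of the others. The log2 fold change was 0.43 ± 0.14, with an adjusted p of 0.0865, and ran from 0.23 to 0.54 over the alternative settings. This gene lies on the minus strand of the mitochondrial chromosome, at GRCm38 chrM:13552-14070, and whether strand was used in counting is not stated, so its reads cannot be told apart from antisense reads. The other 12 ranged from -0.17 for mt-Nd5 to 0.23 for mt-Atp6, with standard errors of 0.11 to 0.23. The mt-Atp6 value ran from -0.03 to 0.41 over the alternative settings. Its nuclear copy RP23-8J15.3, which took 95.8% as many counts, was at 1232 to 1893 TPM with T-bet and 1763 to 2351 TPM without. The division of reads between mt-Atp6 and this copy is uncertain.

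The effect of T-bet was then taken apart by GATA3 background. In T-bet + Plum against GFP + Plum, 0 of the 91 members were called, against 6.2% of all genes. Ndufa7, a complex I subunit named after its values were seen, was the 1 member at an unadjusted p below 0.05 in edgeR, against 19.4% of all genes, and DESeq2 gave 0 at either level. The median log2 fold change was -0.02 for nuclear and 0.06 for mitochondrially encoded members, and both took either sign when 1 library was left out. In T-bet + GATA3 against GFP + GATA3, 0 were called, against 5.77% of all genes, with 2 at an unadjusted p below 0.05, Cox7a2 and Sdhd, against 19.6% of all genes, and DESeq2 called 0 with 2 at that level. The medians were 0.04 and 0.14. Cox7a2 had a log2 fold change of 0.38 ± 0.11 there, with an adjusted p of 0.0953. In T-bet + GATA3 against GFP + Plum, 0 were called by edgeR or DESeq2, against 4.87% of all genes, with 2 at an unadjusted p below 0.05 in each, against 17.8% of all genes. These were Cox7a2 and mt-Nd6 in edgeR, at 0.37 ± 0.11 and 0.67 ± 0.20. The medians were 0.07 and 0.23, and with 1 library left out they ran from -0.075 to 0.17 and from 0.056 to 0.50. This comparison shares its control libraries with the first and its T-bet libraries with the second.

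HA-GATA3 had no called effect on any member. Pooled over T-bet backgrounds, 0 of the 91 members were called at an FDR of 0.05 in edgeR, against 0.0608% of all genes, and 0 were at an unadjusted p below 0.05, against 4.96%. DESeq2 also gave 0 and 0. The nuclear median was 0.06, and the 95% confidence interval lay between -0.5 and 0.5 for 74 of the 78. The same counts of 0 held for GFP + GATA3 against GFP + Plum, where 0.0203% of all genes were called and 3.7% were at an unadjusted p below 0.05, and for T-bet + GATA3 against T-bet + Plum, where 0.0338% and 3.78% were. The nuclear medians were 0.02 and 0.10, and both took either sign when 1 library was left out. Of the 78 nuclear members, 1, or 1.28%, had all HA-GATA3 libraries on 1 side of the others, against 1.62% of all genes (0.825% higher and 0.798% lower). This was Atp5h, a stalk subunit of the synthase, named after its values were seen, at 102 to 120 CPM without and 122 to 128 CPM with HA-GATA3, with a log2 fold change of 0.14 ± 0.08 and an adjusted p of 1.00.

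All 13 mitochondrially encoded members were above 0 in the pooled HA-GATA3 comparison, with a median log2 fold change of 0.15. The genes share 1 polycistronic transcription unit per strand and are not independent. The median was 0.39 when computed from the replicate 1 libraries and -0.03 from the replicate 2 libraries. Within GFP + Plum the median member was 0.51 log2 units higher in replicate 2 than in replicate 1, and within T-bet + Plum 0.34, against 0.03 in GFP + GATA3 and 0.04 in T-bet + GATA3. The difference between libraries of each line without HA-GATA3 was thus larger than that between the groups.

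The interaction of T-bet and HA-GATA3, which tests whether the effect of one depended on the other, was called for 0 members in edgeR and in DESeq2, with 0 at an unadjusted p below 0.05 in both. In edgeR it was called for 0% of all genes, with 2.58% at an unadjusted p below 0.05. The intervals were wider here, with a median standard error of 0.20 for nuclear members. Only 24 of the 78 had an interval between -0.5 and 0.5, so interactions of that size were not excluded for most.

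Genes around the complexes were set beside the subunits in the pooled T-bet comparison. Of 47 respiratory chain assembly factors tested, 4 were called, or 8.51%, all higher, with a median of 0.14. They were Ndufaf5 at 0.50 ± 0.14, with an adjusted p of 0.0433, and Ndufaf4 at 0.30 ± 0.08, both for complex I, Tmem70 at 0.32 ± 0.09, for the synthase, and Cmc1 at 0.39 ± 0.11, for the oxidase. The adjusted p-values of the latter 3 were 0.0457, 0.0445 and 0.0460. Of 25 other chain parts and carriers 1 was called, Slc25a4, an ADP/ATP carrier, at 0.29 ± 0.08 with an adjusted p of 0.0399. Cycs and Cyc1, the cytochromes c and c1, were at 0.15 ± 0.11 and -0.09 ± 0.13. The carrier Slc25a5, the synthase inhibitor Atpif1 and the uncoupling protein homologue Ucp2 were at -0.04 ± 0.08, 0.26 ± 0.11 and 0.23 ± 0.13. None of these 5 was called.

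Of 35 genes for mitochondrial biogenesis and mitochondrial DNA expression, 4 were called, all higher. Myc rose by 0.79 ± 0.11 with an adjusted p of 0.00216, from 69.1 to 100.1 TPM without T-bet to 118 to 144 TPM with it. Ppargc1b, the coactivator PGC-1β, rose by 0.73 ± 0.12 with an adjusted p of 0.00601, from 6.90 to 11.3 TPM to 12.8 to 14.9 TPM. Pnpt1, a mitochondrial RNA-processing enzyme, and Fastkd1, a regulator of mitochondrial transcripts, rose by 0.50 ± 0.11 and 0.32 ± 0.09. The values not called were -0.40 ± 0.15 for Ppargc1a, -0.32 ± 0.13 for Nrf1, -0.21 ± 0.07 for Gabpa, 0.43 ± 0.13 for Esrra, 0.17 ± 0.10 for Pprc1 and 0.03 ± 0.08 for Tfam, which packages mitochondrial DNA. The median of this list was 0.03.

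In the tricarboxylic acid cycle and pyruvate dehydrogenase list 1 of 23 genes was called, Pdk2, a kinase of pyruvate dehydrogenase, which was at most 1.04 TPM in any library and passed the filter on low counts through the T-bet libraries, where it is higher. The median was -0.03. Of 77 mitochondrial ribosomal proteins 3 were called, or 3.90%, all higher, which were Mrps6, Mrpl17 and Mrpl30 at 0.46 ± 0.12, 0.36 ± 0.09 and 0.33 ± 0.09, and the median was 0.03. Cytosolic ribosomal proteins had a median of 0.21, and 7 of 87 were called, or 8.05%. Among them Rpl36a rose by 0.46 ± 0.10 and Rps27l fell by 0.37 ± 0.09 on the log2 scale. At an unadjusted p below 0.05 there were 38 of the 87, 37 of them higher, against 29.2% of all genes. None of these lists had a share called above the 15.2% of all genes, although the 4 of 35 biogenesis genes called higher were 11.4%, against 8.55% of all genes called higher. In the HA-GATA3 comparison no gene of the 6 lists was called by edgeR, with 3 at an unadjusted p below 0.05.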

How the data were processed

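The 8 libraries were made from poly-A RNA of 4 EL4 lines, 2 libraries a line, grouped by their labels. The authors trimmed reads with Trim Galore, checked them with FastQC and quantified transcripts with kallisto against Gencode mouse transcripts of mm10. The deposited files hold estimated counts, TPM and transcript lengths per transcript. The stated Gencode release differed between sources, and the versions of the tools are not given in the sources used here. kallisto shares reads among similar transcripts by likelihood, so values of genes with near-identical copies are uncertain.

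Transcripts were summed per gene. Rounded counts were fitted with edgeR 4.0.16 (R 4.3.3, TMM scaling, filterByExpr, quasi-likelihood test, 4 lines as groups, Benjamini-Hochberg adjustment over all 14791 genes tested), and a call required a false discovery rate (FDR) no higher than 0.05. Standard errors came from the F statistic and 95% intervals from the fit's degrees of freedom. CPM values are TMM-scaled. Floors and intervals on counts cover counting error only. The fit was tested on simulated data. Alternatives included DESeq2 1.42.0, other scalings and filters, protein-coding transcripts, and each library left out. Shared words of 31 bases were counted on the Gencode M21 transcripts, and gene positions are from M21 on GRCm38. Promoters were matched by symbol or RefSeq synonym, for 70 of the 85 nuclear members.

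The members and gene lists were chosen with earlier results of these data known. Members were named if called in any comparison, among the 5 largest rises or falls of nuclear members in the pooled T-bet comparison, among the 5 with the highest mean TPM, mitochondrially encoded, or in an isoform set, and list genes if called (at most 5 a list) or by role. Atp5h, Atp5j, Ndufa6, Ndufa7, Ndufb4, Ndufs3 and Sdhd were named after their values were seen. Same-numbered libraries were not paired by the labels, so no block was used. With 2 libraries a line, outlying libraries could not be tested.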

Additional observations from a re-analysis of the deposited data

How the results depend on the processing

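In the pooled T-bet comparison the count of members called, 1 with the settings of the report, was 0 under DESeq2, library size scaling, offsets for transcript length, protein-coding transcripts only, and a log2 fold change above 1.5. It was 2 with no filter on low counts (Cox6a2 and mt-Nd6, without Cox7a2) and 2 with the replicate number as a block (Cox7a2 and Ndufv3), where 3063 genes were called against 2242. Same-numbered libraries correlated at -0.05 to 0.30 in their deviations, which does not settle whether they share a replicate effect. The labels do not pair them, so the block was kept as an alternative only. It changed the count of members called in no other comparison. Leaving out 1 library gave 0 to 1, and the single call was Atp5f1, Sdhd or mt-Nd6, never Cox7a2. Between T-bet + GATA3 and GFP + Plum the count was 0 to 1 when 1 library was left out and 1 with no filter on low counts, in each case mt-Nd6. The causes were not tested.

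The nuclear median between T-bet + GATA3 and GFP + Plum was 0.049 under DESeq2, -0.010 with library size scaling and 0.054 with no filter. With library size scaling it was -0.045 between T-bet + GATA3 and GFP + GATA3 and -0.053 in the pooled T-bet comparison, where the mitochondrially encoded median was 0.040. The latter was 0.048 between T-bet + GATA3 and GFP + GATA3, and 0.10 with pseudogene counts added. With 1 library left out, nuclear medians ran from -0.066 to 0.12 between GFP + GATA3 and GFP + Plum, from -0.075 to 0.17 between T-bet + GATA3 and GFP + Plum, from -0.084 to 0.11 between T-bet + GATA3 and GFP + GATA3, from -0.073 to 0.072 in the pooled T-bet comparison, from -0.084 to 0.088 between T-bet + Plum and GFP + Plum, from -0.019 to 0.16 between T-bet + GATA3 and T-bet + Plum, and from 0.0061 to 0.10 in the pooled HA-GATA3 comparison. Mitochondrially encoded medians ran from -0.12 to 0.28 between T-bet + Plum and GFP + Plum, from -0.10 to 0.41 between GFP + GATA3 and GFP + Plum, from 0.041 to 0.18 between T-bet + GATA3 and GFP + GATA3, from 0.056 to 0.50 between T-bet + GATA3 and GFP + Plum, from 0.050 to 0.38 between T-bet + GATA3 and T-bet + Plum, from 0.014 to 0.24 in the pooled T-bet comparison, from 0.039 to 0.28 in the pooled HA-GATA3 comparison and from -0.19 to 0.30 in the interaction.

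Shares are given in the order GFP + Plum, T-bet + Plum, GFP + GATA3, T-bet + GATA3. The nuclear share was 1.21, 1.125, 1.22 and 1.18% of estimated counts, 4.27, 3.85, 4.20 and 4.03% of the TPM of protein-coding transcripts, and 1.47, 1.398, 1.57 and 1.43% with only the members' protein-coding transcripts. Without mitochondrial genes in the total it was 2.005% in GFP + Plum and 2.12% in GFP + GATA3. The mitochondrially encoded share was 2.21, 2.22, 2.40 and 2.46% of counts, 6.497, 6.21, 6.89 and 6.84% of the TPM of protein-coding transcripts, and 3.45, 3.42, 3.91 and 3.63% with pseudogene TPM added. Single libraries of GFP + GATA3 gave nuclear shares of 1.99 to 2.06% and those of GFP + Plum 1.92 to 1.93%.

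Of 706 repeats for named genes in the pooled T-bet comparison, 687 kept their side of the threshold, 13 lost the call, all of them for Cox7a2, and 6 gained one, for Atp5f1, Cox6a2, Ndufv3, Sdhd and mt-Nd6. No value that was called changed sign, while 16 of the named genes, none of them called with the settings of the report, changed sign under at least 1 setting. With 2 libraries a line, a change of 0.5 on the log2 scale lay outside the 95% interval for 67 of 78 nuclear members in the pooled T-bet comparison and for 24 in the interaction.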
